A study of Macaca mulatta with 102 samples.

Results

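The arrays described here are the 3 of the 102 in the series whose group label is Tac.Mtx.F, set against the 46 arrays labelled Healthy.Control. They hold RNA of CD3 T cells, sorted by flow cytometry from the blood of rhesus macaques (Macaca mulatta), and were hybridised to Affymetrix rhesus arrays. The 3 animals, R.21, R.20 and R.19, had received a transplant of hematopoietic cells and were sampled on days 26, 67 and 49 after it. Their group name was read as tacrolimus with methotrexate, given as prophylaxis against graft-versus-host disease, which per the labels recipients of donor cells received. The letter F in the name is not defined by the labels. The same 3 animals were also sampled on day 14 (Tac.Mtx.D14), and 7 other animals, read as treated with belatacept and sirolimus, were sampled on days 26 to 105 (Bela.Siro.F). The 46 healthy arrays came from 45 animals, and the 2 arrays of 1 of them were averaged. Of these 45 animals 11 also gave arrays to recipient groups, 1 of them to Bela.Siro.F. None of the 3 Tac.Mtx animals gave a healthy array, so animals before and after the transplant were not compared. Age, sex, donor match, drug levels, chimerism and disease state at sampling are not given by the labels of these arrays, so the transplant, the drugs and the disease cannot be told apart in Tac.Mtx.F against Healthy.Control. All 3 Tac.Mtx.F arrays, and 13 of the healthy ones, belong to labelled batch 3.

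Tacrolimus binds the immunophilin FKBP1A, and the complex blocks calcineurin, the phosphatase that frees NFAT transcription factors to enter the nucleus of an activated T cell. NFAT then drives cytokine genes such as IL2 and IFNG. Methotrexate is a folate analogue that inhibits enzymes of folate metabolism and of purine and thymidylate synthesis, on which dividing T cells depend. In graft-versus-host disease, donor T cells are activated by tissue of the recipient, divide and acquire effector functions.

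Values are log2 RMA signals. Differences are Tac.Mtx.F minus Healthy.Control on the log2 scale ± SE from 1 limma fit over all arrays with batch as a term. A change was called at a Benjamini-Hochberg adjusted p under 0.05. The recipient groups of batch 3 lie in that batch alone. With the batch term, each difference is therefore the mean of the 3 Tac.Mtx.F arrays minus that of the 13 healthy arrays of batch 3. Healthy arrays of other batches add only to the estimate of the spread. Healthy ranges and medians printed beside the differences cover all 45 animals. The SE rests on a spread pooled over all groups, so it does not describe the spread among the 3 recipients. Of 31703 probe sets 4520 passed, or 14.3%, with 2187 higher (6.9%) and 2333 lower (7.36%). Of 10718 genes, each represented by 1 probe set, 1385 passed, or 12.9%: 1083 rose, or 10.1%, and 302 fell, or 2.82%. The median difference of all genes was 0.05. These shares are the background for the gene lists below. With batch 3 alone, which leaves each difference the same and can move only its SE and p, 4274 probe sets passed. Leaving out R.21 left 1538, leaving out R.20 left 1767 and leaving out R.19 left 2937. For 258 genes, or 2.41%, all 3 Tac.Mtx.F arrays lay above every healthy animal, and for 38, or 0.355%, all 3 lay below.

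No core T cell gene was called. Among 10 measured core T cell genes 0 rose and 0 fell by limma (1 had an unadjusted p under 0.05), and the mean level of this list was 9.89, 10.01 and 9.99 in R.19, R.20 and R.21, against 9.58 to 10.12 in healthy animals. CD3D, CD3E and CD3G were not analysed here. CD4 stood at 6.53, 6.96 and 6.99, against 6.10, 6.74 and 7.43 (lowest, median and highest) in healthy animals, and CD8A at 12.86, 12.60 and 12.60, against 11.63, 12.36 and 12.76. Both coreceptors overlapped with the healthy range, with differences of 0.18 ± 0.21 (adjusted p = 0.644) and 0.31 ± 0.17 (adjusted p = 0.227). In sorted bulk RNA, fewer cells of a type and less RNA per cell cannot be told apart, which applies to every gene below.

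Several genes of T cell costimulation and of inhibitory receptors were higher in all 3 recipients. CD70, the ligand of the costimulatory receptor CD27, which is found on recently activated lymphocytes, stood at 7.79, 7.94 and 8.13 in R.19, R.20 and R.21, against 4.81, 5.64 and 6.60 in healthy animals. The ranges did not overlap, and the difference of 2.22 ± 0.34 (4.64-fold, adjusted p = 1.8e-05) was called without any 1 of the 3 arrays as well. TNFRSF4, the gene of the costimulatory receptor OX40, stood at 8.47, 9.03 and 8.97, against 6.92, 7.71 and 8.33. All 3 values were again above every healthy animal, with a difference of 1.25 ± 0.21 (adjusted p = 6.77e-05). LAG3, an inhibitory receptor that binds MHC class II, stood at 8.74, 9.36 and 8.65, against 6.18, 7.23 and 8.07, a rise of 1.65 ± 0.38 (adjusted p = 0.00211). TIGIT, an inhibitory receptor for nectin-like ligands, stood at 10.42, 10.60 and 10.67, against 8.39, 9.56 and 10.41, a rise of 1.03 ± 0.27 (adjusted p = 0.00674). These 2 receptors were likewise above the whole healthy range in each recipient, TIGIT in R.19 only narrowly. TIGIT was not called without R.21 (adjusted p = 0.0626).

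CD70, one of the 12 largest rises, was not on the list of costimulation and checkpoint genes. Of 17 measured costimulation and checkpoint genes 6 rose and 0 fell, with a median of 0.43 (all genes: 10.1% rose, median 0.05). The other called members were CD160, an inhibitory and costimulatory receptor of cytotoxic cells (1.65 ± 0.47), CTLA4, which competes with CD28 for its ligands (1.11 ± 0.39), and ENTPD1, the ectonucleotidase CD39 (1.02 ± 0.31). CTLA4 had an adjusted p of 0.0401, and of 0.0645 within batch 3. It was not called without any 1 of the 3 arrays (adjusted p = 0.0686 to 0.295). As the mean of its 3 probe sets ENTPD1 was not called (0.70, adjusted p = 0.0767), and CTLA4 was not called with the myeloid list mean as a covariate (adjusted p = 0.0758). CD160 was not called without R.19, nor ENTPD1 without R.21 or without R.20. The list had 3 rises without R.21, 4 without R.20 and 4 without R.19. The members that missed the threshold included ICOS, CD28, CD226, CD96, BTLA, TOX and HAVCR2. PDCD1 was not analysed here.

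The regulatory T cell list overlapped with these genes. Of its 14 measured members 5 rose and 0 fell, with a median of 0.16, and 4 of the 5 (TNFRSF4, CTLA4, TIGIT and ENTPD1) were also members of the checkpoint list. The fifth was BATF, an AP-1 family transcription factor, with a rise of 0.82. The count was 1 without R.21, 2 without R.20 and 4 without R.19, where the median was 0.34. With batch 3 alone 4 members rose and 1 fell. FOXP3, the factor that defines these cells, stood at 4.98, 4.86 and 5.23, against 4.52, 5.08 and 5.46 in healthy animals. Its values lay in the middle of the healthy range, with a difference of -0.01 ± 0.15 (adjusted p = 0.987), and below 5.21, the median of all values, in 2 of 3 recipients. IL2RA, the high-affinity chain of the IL-2 receptor, differed by 0.11 ± 0.23 (adjusted p = 0.814). It stood at 5.61 in R.19, 6.02 in R.20 and 7.17 in R.21, against 5.55 to 6.92, so R.21 alone was above the healthy range.

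**Figure D1:**
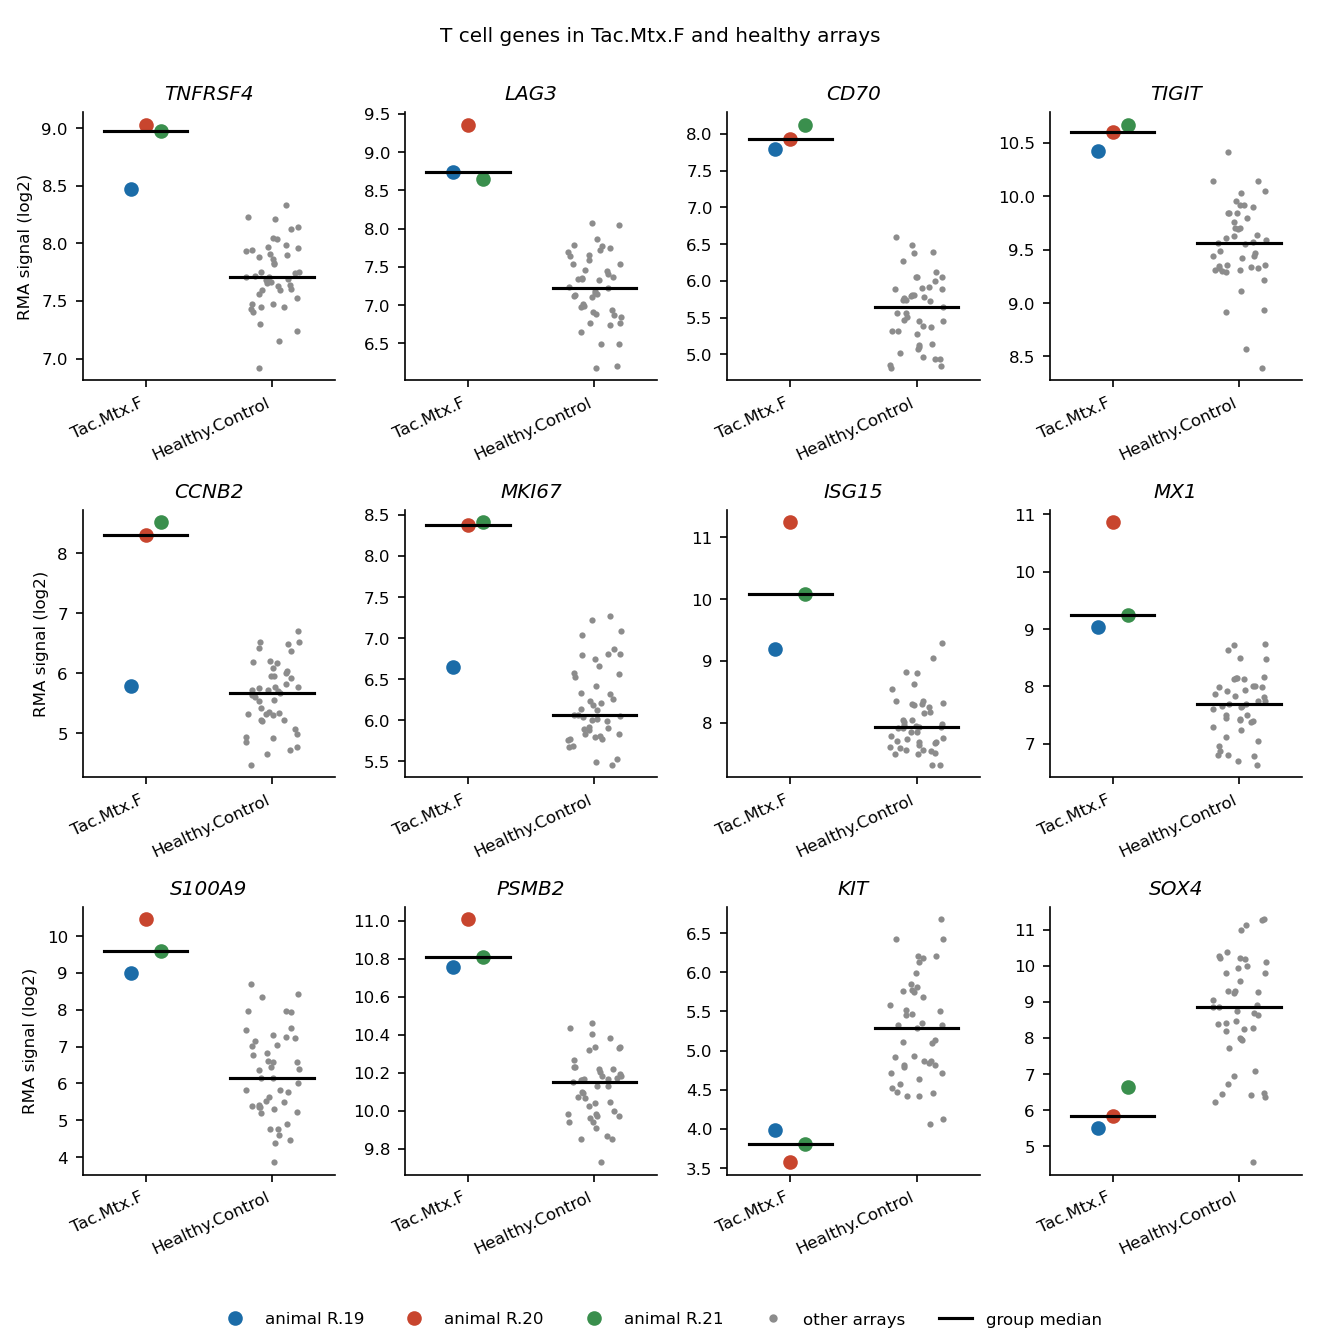
RMA signal (log2) of 12 genes in Tac.Mtx.F (left, 3 animals in colour) and Healthy.Control (right, 45 animals in grey), with a line at each group's median. CD70, TNFRSF4, LAG3, TIGIT, MX1, PSMB2 and S100A9 lie above every healthy animal in all 3 recipients and KIT below, while CCNB2 and MKI67 do so in R.20 and R.21 but not in R.19.

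Genes of cell division were high in R.20 and R.21 and not in R.19. Among the 23 cell cycle genes measured, 15 rose and 0 fell, with a median of 1.00. CCNB2, a mitotic cyclin, stood at 5.79 in R.19, 8.31 in R.20 and 8.53 in R.21, against 4.47, 5.68 and 6.72 in healthy animals. MKI67, a marker of proliferating cells, stood at 6.65, 8.37 and 8.42, against 5.45, 6.07 and 7.27. In both genes R.20 and R.21 exceeded every healthy animal, and R.19 lay among them, with 16 healthy animals at or above it for CCNB2 and 10 for MKI67. The differences were 1.76 ± 0.51 for CCNB2 (adjusted p = 0.0125) and 1.44 ± 0.40 for MKI67 (adjusted p = 0.00975), or 0.96 as the mean of its 3 probe sets.

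TYMS, the thymidylate synthase that antifolates target, stood at 4.98, 7.85 and 7.35, against 3.62, 4.71 and 6.04, a rise of 1.92 ± 0.54 (adjusted p = 0.011). TOP2A, a DNA topoisomerase, rose by 1.73 ± 0.54, and the E2F family member E2F8 by 1.81 ± 0.47. The healthy medians of TYMS and E2F8 lie under the median of all values, so the size of their change is less certain. The kinase gene CDK1 rose by 1.63, and the replicative helicase subunits MCM2, MCM3, MCM4 and MCM5 rose by 0.92 to 1.21. Among the members not called were AURKA, AURKB, CCNA2, CCNB1 and the ribonucleotide reductase gene RRM1. For 0 of the 23 genes were all 3 arrays above every healthy animal. The list's mean level was 6.96 in R.19, 8.21 in R.20 and 8.13 in R.21, against 6.27, 6.70 and 7.35 in healthy animals. The count of 15 rises was 1 without R.21, 0 without R.20 and 16 without R.19. On day 14 the same order held in these animals, at 6.62 in R.19, 8.29 in R.20 and 7.79 in R.21.

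Nearly as many interferon-induced genes rose as missed the threshold. Of 28 measured members 13 rose and 0 fell, with a median of 0.80, and in 6 of them all 3 recipients were above every healthy animal. IFI27, a mitochondrial protein strongly induced by type I interferon, stood at 10.17, 11.47 and 10.20, against 6.07, 7.53 and 10.49, a rise of 2.73 ± 0.61 (adjusted p = 0.00156). CMPK2, a mitochondrial nucleotide kinase, stood at 6.33, 8.39 and 7.24, against 4.33, 5.16 and 6.00, a rise of 2.21 ± 0.46 (adjusted p = 0.000894). One healthy animal reached the lowest recipient for IFI27, and none did for CMPK2. The healthy median of CMPK2 lies under the median of all values, which makes its size less certain. These genes are among the most strongly interferon-responsive in human cells. ISG15, a ubiquitin-like modifier, stood at 9.19, 11.25 and 10.08, against 7.31, 7.93 and 9.30, a rise of 2.06 ± 0.43. MX1, an antiviral GTPase, stood at 9.03, 10.87 and 9.24, against 6.63, 7.69 and 8.74, a rise of 1.95 ± 0.54. In all of these genes R.20 was the highest recipient, and ISG15 and MX1 were not called without R.20. The list's mean level was 8.83 in R.19, 9.72 in R.20 and 8.94 in R.21, all above the healthy maximum of 8.54. The count of 13 rises was 3 without R.20, 11 without R.21 and 13 without R.19. IFIT1, IFIT2, IFIT3, GBP1 and CXCL10 were among the 15 members that missed the threshold.

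Some proteasome, glycolytic, respiratory and sterol genes rose, by modest amounts. Of 23 measured proteasome genes 11 rose and 0 fell, with a median of 0.40, and in 9 of them the 3 recipients were above every healthy animal. PSMB2, a catalytic-core subunit, stood at 10.76, 11.01 and 10.81, against 9.73, 10.15 and 10.46, a rise of 0.76 ± 0.12 (adjusted p = 1.87e-05). PSME2, a subunit of the interferon-inducible activator, stood at 11.40, 11.83 and 11.81, against 10.60, 10.90 and 11.15, a rise of 0.81 ± 0.13 (adjusted p = 4.55e-05). Neither gene overlapped with the healthy range in any recipient. As the mean of its 2 probe sets PSMB2 differed by 0.39 (adjusted p = 0.00171). The list had 4 rises without R.21, 6 without R.20 and 10 without R.19.

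Of 17 glycolytic genes 7 rose and 0 fell, with a median of 0.40. LDHA, which makes lactate, stood at 12.63, 12.83 and 12.70, against 11.61, 12.06 and 12.38, and PKM, which makes pyruvate, at 7.69, 7.84 and 7.62, against 6.50, 7.03 and 7.51. Both were above every healthy animal in all 3 recipients, with rises of 0.68 ± 0.13 (adjusted p = 0.000545) and 0.72 ± 0.15 (adjusted p = 0.00115). Glucose transporters SLC2A1 and SLC2A3 and the hexokinase HK2 were not called, and HK1 rose by 0.46. The list had 3 rises without R.21 and 4 without R.20.

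Of 29 symbols of oxidative phosphorylation, an old and a current symbol of 1 ATP synthase subunit among them, 8 rose and 0 fell, with a median of 0.33. UQCRB, a subunit of complex III, rose by 1.14 ± 0.32, and ATP5MC1, a ring subunit of the ATP synthase, by 0.69 ± 0.13. The list's mean level in R.19, 10.20, lay within the healthy range, whose highest value was 10.24. UQCRB differed by 0.55 as the mean of its 3 probe sets, and it was not called without R.20 or without R.19. The list had 2 rises without R.21, 2 without R.20 and 8 without R.19. Of 15 sterol synthesis genes 6 rose and 0 fell, with a median of 0.39. SQLE, the squalene epoxidase, stood at 7.51, 7.46 and 8.05, against 5.81, 6.67 and 7.42, a rise of 0.99 ± 0.26 (adjusted p = 0.00683). NSDHL, a later enzyme of the pathway, stood at 7.80, 7.97 and 8.06, against 6.68, 7.18 and 7.69, a rise of 0.73 ± 0.13 (adjusted p = 0.000256). Both exceeded the healthy range in every recipient. SQLE was not called without R.21. The sterol list had 2 rises without R.21 and 3 without R.20. Cytosolic ribosomal protein genes had 2 rises and 0 falls among 34, with a median of -0.05, and RPL24, which rose by 1.36, and RPL19, by 0.59, were both not called without R.20.

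**Figure D2:**
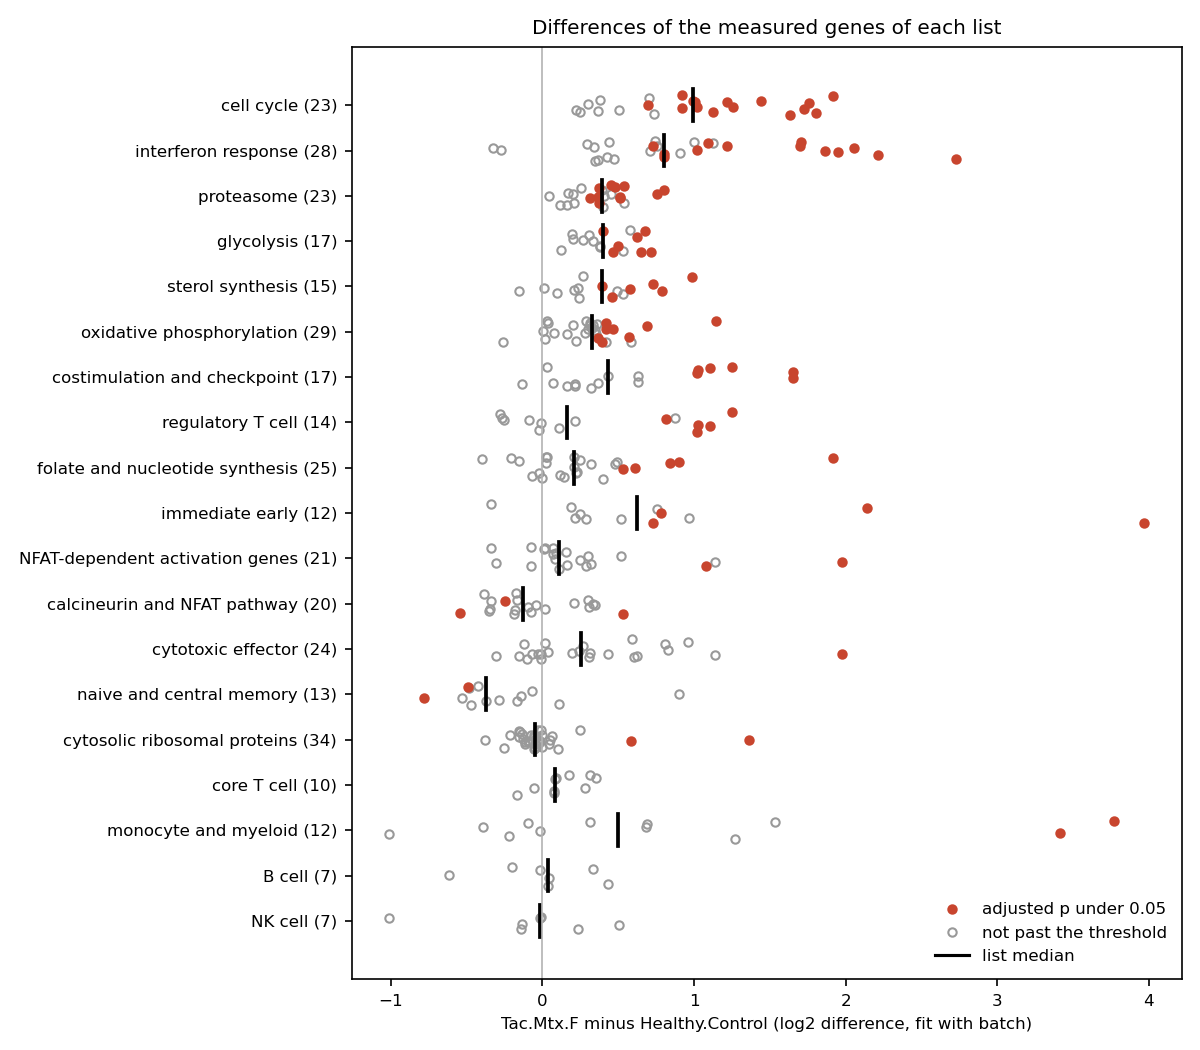
Differences between Tac.Mtx.F and Healthy.Control (log2, horizontal axis) of the measured genes of 19 lists, with the number measured in brackets, called genes filled and the list median as a bar. The medians of the cell cycle and interferon lists stand at 1.00 and 0.80, and those of the ribosomal protein and calcineurin lists at -0.05 and -0.13.

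Of 20 measured genes of the calcineurin and NFAT pathway, which tacrolimus blocks, 1 rose (5%, beside 10.1% of all genes) and 2 fell (10%, beside 2.82%). The list median was -0.13, and -0.07 without R.20. ITPR1, an intracellular calcium channel upstream of calcineurin, rose by 0.53 ± 0.14 (adjusted p = 0.0073). NFAT5, a calcineurin-independent member of the family, had a difference of -0.54 ± 0.18 (adjusted p = 0.0346), and DYRK1A, a kinase that returns NFAT to the cytoplasm, one of -0.25 ± 0.09 (adjusted p = 0.0424). Both falls were lost within batch 3 (adjusted p = 0.0909 and 0.0680), and neither NFAT5 nor DYRK1A was called with the myeloid list mean as a covariate (adjusted p = 0.0587 and 0.0875). DYRK1A was not called as the mean of its 3 probe sets, nor ITPR1 without R.20. Without R.20 none of the list's 20 genes was called. NFATC1 stood at 9.08, 9.19 and 9.86, against 8.81, 9.53 and 10.06, and NFATC2 at 10.99, 10.77 and 10.66, against 9.02, 11.04 and 11.41. These transcription factor genes lay within the healthy range in all 3 recipients, with differences of -0.07 ± 0.20 and -0.18 ± 0.25. RCAN1, a calcineurin inhibitor that is itself an NFAT target in human and mouse cells, stood at 7.35, 6.95 and 7.80, against 6.49, 7.21 and 7.93. Its difference was 0.30 ± 0.24 (adjusted p = 0.452), and 1 of its 3 probe sets passed the test in the other direction. FKBP1A and PPP3CA were not analysed here.

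Among 21 measured genes listed as NFAT-dependent activation genes, 2 rose (9.52%, beside 10.1% of all genes) and 0 fell. The list median was 0.11, and dependence on NFAT was not tested for any member. IL2, the T cell growth factor, stood at 11.65, 11.71 and 11.89, against 11.27, 11.70 and 12.04, with a difference of 0.09 ± 0.13 (adjusted p = 0.717). CD40LG, the helper ligand, stood at 9.41, 9.53 and 9.05, against 8.17, 9.10 and 10.31, with a difference of 0.16 ± 0.25 (adjusted p = 0.732). Both genes lay inside the healthy range. The IL2 signal was far above 5.21, the median of all values, and whether its probe set reads IL2 alone was not tested. IFNG, the effector cytokine, stood at 8.20 in R.19, 7.73 in R.20 and 5.79 in R.21, against 3.99, 5.32 and 7.97, a rise of 1.98 ± 0.59 (adjusted p = 0.0163). R.19 was above every healthy animal, and R.21 had 12 at or above it. IFNG was not called without R.20 or without R.19 (adjusted p = 0.134 and 0.167). CD69, an early activation antigen, rose by 1.08 ± 0.38 (adjusted p = 0.0426), but not with batch 3 alone (adjusted p = 0.0815) or without any 1 of the 3 arrays, nor with the myeloid list mean as a covariate (adjusted p = 0.0912).

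In the folate and nucleotide list 5 of 25 measured genes rose and 0 fell, with a median of 0.21 (0.13 without R.21). Besides TYMS, MTHFD1, a cytosolic enzyme that interconverts one-carbon folates, stood at 10.13, 10.14 and 9.69, against 8.42, 9.001 and 9.70, a rise of 0.90 ± 0.20 (adjusted p = 0.00133). ADA, adenosine deaminase, stood at 10.63, 11.14 and 10.88, against 9.53, 9.96 and 10.44, a rise of 0.84 ± 0.15 (adjusted p = 0.000135). ADA was above the healthy range in all 3 recipients, and 1 healthy animal reached the lowest recipient for MTHFD1. GMPS, which makes GMP, rose by 0.61 ± 0.14, and ATIC, which catalyses the last steps of IMP synthesis and is a target of methotrexate polyglutamates, by 0.53. The folate carriers SLC19A1 and SLC46A1, FPGS, which traps folates and methotrexate in the cell, SHMT1, SHMT2 and GART were not called. The list had 3 rises without R.21 or without R.20, and 5 without R.19, and TYMS was not called without R.21 or without R.20.

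Immediate early genes, which T cells switch on within minutes of stimulation and also during handling, were high in the recipients and in some healthy animals. FOS, a subunit of AP-1, stood at 13.49 in R.19, 12.88 in R.20 and 11.94 in R.21, against 6.73, 8.69 and 13.99, the largest called rise at 3.97 ± 1.06 (15.7-fold, adjusted p = 0.00709). DUSP1, a phosphatase of MAP kinases, stood at 13.43, 12.54 and 12.41, against 9.25, 10.52 and 13.70, a rise of 2.14 ± 0.64 (adjusted p = 0.0148). For FOS 1 and for DUSP1 2 healthy animals reached the lowest recipient. Of 12 measured genes of this class 4 rose and 0 fell, with a median of 0.62, JUND by 0.78 and IER2 by 0.73 besides. The count was 1 without R.21 and 0 without R.20 or without R.19. FOS was called without R.21, and just missed the threshold without R.20 and had an adjusted p of 0.0550 without R.19. DUSP1, JUND and IER2 were not called without any 1 of the 3 arrays, nor IER2 within batch 3. The list's mean level was 9.13 in R.19, 8.62 in R.20 and 8.66 in R.21, against 7.24, 7.91 and 9.14 in healthy animals. With the myeloid list mean as a covariate 2 of the 12 genes rose, FOS and DUSP1, and the list median was 0.37. JUND and IER2 were not called in that fit (adjusted p = 0.0723 and 0.103). The part of sample handling was not tested.

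Most cytotoxic effector genes were not called against healthy animals. Of 24 measured members 1 rose, IFNG, and 0 fell. The list median was 0.26, but -0.05 without R.19 and 0.56 without R.21, and no member was called without R.20 or without R.19. GZMB, a granzyme, stood at 13.58, 13.51 and 12.81, against 11.37, 12.84 and 13.60, and GNLY, granulysin, at 13.65, 13.62 and 11.95, against 10.60, 12.22 and 13.12. R.19 and R.20 were near or above the top of the healthy range and R.21 near its middle, with differences of 0.44 ± 0.39 (adjusted p = 0.515) and 0.96 ± 0.46 (adjusted p = 0.158). The list's mean level was 9.93 in R.19, 9.45 in R.20 and 8.74 in R.21, against 7.79, 8.93 and 9.86. R.19, the lowest of the recipients in division genes but within the healthy range there, was the highest in this list, and above every healthy animal.

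Of 13 genes of naive and central memory cells 0 rose and 2 fell, with a median of -0.37 (-0.17 without R.19). FOXP1, a transcription factor of quiescence, stood at 11.35, 11.16 and 11.74, against 11.22, 12.29 and 12.84, and fell by 0.78 ± 0.19 (adjusted p = 0.0028). KLF2, which maintains expression of egress receptors, fell by 0.49 ± 0.16 (adjusted p = 0.0285). CCR7, the lymph node homing receptor, stood at 8.72, 9.53 and 10.02, against 8.32, 9.93 and 11.17, with a difference of -0.37 ± 0.40 (adjusted p = 0.596). All 3 lay within the healthy range for CCR7, R.19 lowest. Without R.20 the list had 0 falls, and FOXP1 an adjusted p of 0.0625. KLF2 was not called without any 1 of the 3 arrays, nor as the mean of its 2 probe sets (-0.32, adjusted p = 0.214).

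Of 14 regulators and receptors of Th1, Th2 and Th17 cells 0 rose and 0 fell by limma, and 3 had an unadjusted p under 0.05, with a median of 0.06. Of 18 chemokine receptor and homing genes 1 rose, ITGB7, a chain of the gut-homing integrin, by 0.71 ± 0.19, with a list median of 0.16. In the NF-kB list 1 of 16 rose, BCL3, an atypical IkB protein, at 8.40, 8.60 and 8.57, against 6.75, 7.48 and 8.05 in healthy animals. BCL3 was above the healthy range in every recipient and rose by 1.00 ± 0.25 (adjusted p = 0.00372), or by 0.55 as the mean of its 2 probe sets (adjusted p = 0.00363). Of 16 genes of cytokine signalling 3 rose and 0 fell, with a median of 0.41. They were SOCS3, a feedback inhibitor of cytokine receptors (0.88 ± 0.30), IL15RA, which presents IL-15 (0.83 ± 0.18), and JAK2, a receptor kinase (0.79 ± 0.25). As the mean of its 3 probe sets JAK2 was not called (0.32, adjusted p = 0.298), and SOCS3, whose healthy median lies under the median of all values, was not called with the myeloid list mean as a covariate (adjusted p = 0.0647). JAK2 was not called without any 1 array, nor SOCS3 and ITGB7 without R.21 or without R.20.

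Of 13 apoptosis genes 2 rose and 0 fell, with a median of 0.23. BAK1, a pore-forming member of the BCL2 family, stood at 8.08, 8.25 and 7.93, against 6.90, 7.33 and 7.90, a rise of 0.69 ± 0.17 (adjusted p = 0.00298). FAS, a death receptor that is also a p53 target, stood at 8.998, 9.39 and 9.42, against 6.70, 8.33 and 9.34, a rise of 0.99 ± 0.33 (adjusted p = 0.0301). BAK1 was above every healthy animal in all 3 recipients, and FAS was not. FAS was not called without any 1 array, nor BAK1 without R.20 (adjusted p = 0.0506). Among 16 p53 targets ZMAT3 also rose, by 0.84 ± 0.30, and SESN1, a sestrin of the stress response, fell by 0.83 ± 0.26. Of 6 heat shock genes HSPA8, a constitutive chaperone, rose by 0.65 ± 0.14, with a list median of -0.06. ZMAT3 was not called as the mean of its 2 probe sets (0.56, adjusted p = 0.0761). Without R.21, ZMAT3 and HSPA8 were not called, and without R.20, ZMAT3 and SESN1 were not called.

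**Figure D3:**
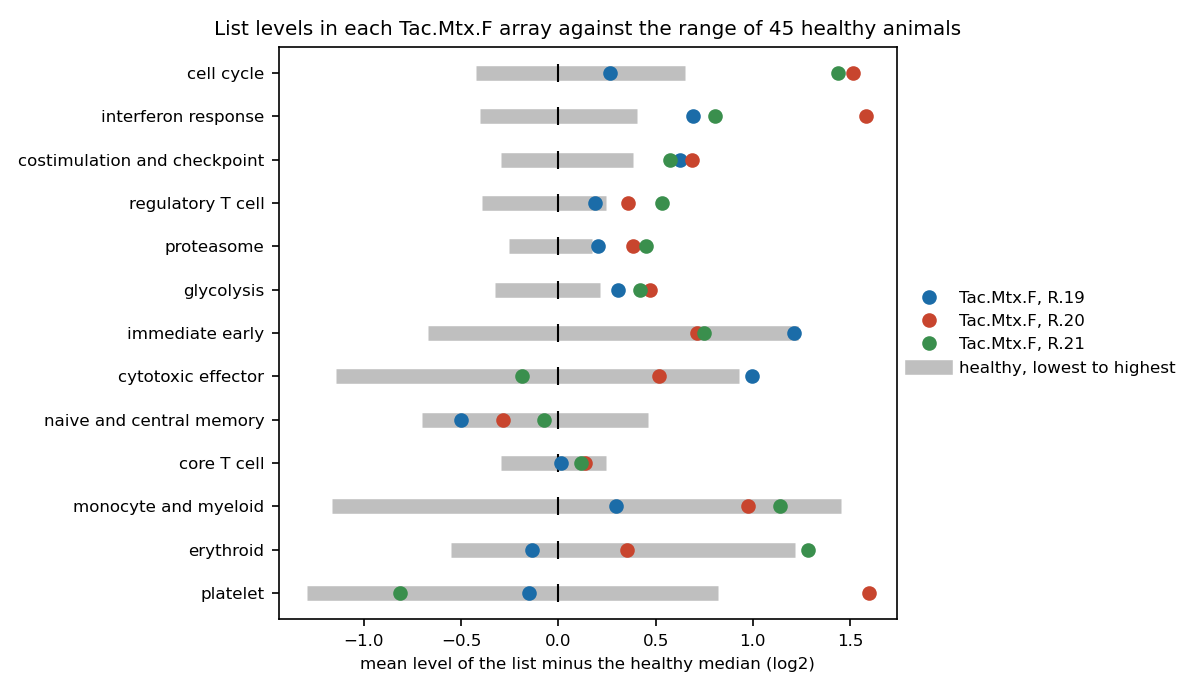
Mean level of 13 gene lists in each Tac.Mtx.F array, as the log2 distance from the healthy median (horizontal axis), with the range of 45 healthy animals as a grey bar. R.19 lies within the healthy range for division genes, and above it for cytotoxic genes, where R.20 and R.21 lie within.

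Transcripts of other blood cells differed between the 3 arrays. S100A9 and S100A8, the calprotectin subunits of monocytes and neutrophils, were among the largest rises. S100A9 stood at 9.003, 10.47 and 9.59, against 3.86, 6.16 and 8.69, a rise of 3.77 ± 1.08 (adjusted p = 0.012). S100A8 stood at 9.06, 10.96 and 10.33, against 4.73, 6.77 and 9.02, a rise of 3.42 ± 1.05 (adjusted p = 0.0194). All 3 recipients were above the healthy range for both, and both were also called with the mean of the myeloid list as a covariate (2.22 and 1.90). That mean includes both genes, so this fit cannot show whether their rise goes beyond that of the list. Neither was called without R.21 or without R.20. On day 14 S100A9 stood at 8.83, 9.63 and 10.48 in the same animals. The 2 were the only ones of 12 measured monocyte and myeloid genes that rose, with a list median of 0.50, which was 0.10 without R.21. CD14, LYZ, FCN1 and VCAN had differences of 0.31, 0.69, 1.54 and 1.27 that missed the threshold, and CSF1R and TYROBP differences of -0.39 and -1.01. The mean level of the list was 6.40 in R.19, 7.08 in R.20 and 7.24 in R.21, against 4.94, 6.10 and 7.56 in healthy animals, and 2 of the 12 markers had a healthy median under 5.21. Its part in the other results was not tested beyond the fit with this covariate, in which 3662 probe sets passed, and 67 of the 79 called genes named by rule stayed called.

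The mean of the 7 measured platelet genes was 8.48 in R.20, against 5.59 to 7.71 in healthy animals, while R.19 and R.21 lay within that range. TREML1, a platelet receptor, stood at 5.70 in R.19, 8.55 in R.20 and 5.55 in R.21, against 4.75, 5.71 and 6.43, and its rise of 0.94 ± 0.33 (adjusted p = 0.042) was not called within batch 3 (adjusted p = 0.139) and was -0.038 without R.20. The mean of the 7 erythroid genes was 7.17 in R.21, against 5.34 to 7.11 in healthy animals, and 5.75 and 6.24 in R.19 and R.20. Of these 7 genes 1 was called, BPGM, an enzyme that makes the regulator of oxygen release by hemoglobin, which fell by 1.03, but not without R.21 or without R.20. In the B cell, plasma cell, granulocyte and NK cell lists 0 of 7, 0 of 6, 0 of 7 and 0 of 7 measured genes were called by limma, with 1, 0, 1 and 0 at an unadjusted p under 0.05. Their mean levels in each of the 3 recipients lay within the healthy range.

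Among the other largest rises, the healthy medians of MOCOS, ANXA3 and CCL23 lie under the median of all values, so the size of their change is less certain. MOCOS, which sulfurates the molybdenum cofactor, stood at 6.86, 6.27 and 7.05, against 3.49, 4.27 and 5.38, a rise of 2.53 ± 0.37 (adjusted p = 1.23e-05). ANXA3, a phospholipid-binding annexin, stood at 6.84, 7.03 and 7.13, against 2.99, 4.58 and 5.52, a rise of 2.64 ± 0.48 (adjusted p = 0.000255). Both were above the healthy range in all recipients and called without any 1 array. ANXA4, a related annexin, rose by 2.17 ± 0.61, but not without R.21 or without R.20. CD86, a ligand of CD28 and CTLA4, rose by 2.36 ± 0.75 (adjusted p = 0.0233), with 9.78 in R.19 and 9.55 in R.20 above the healthy maximum of 9.03 and R.21 at 7.53 below it, and it was not called without R.20 or without R.19, nor with the myeloid list mean as a covariate (2.03, adjusted p = 0.0573). CCL23, a chemokine for monocytes and resting T cells, rose by 2.53 ± 0.55, but stood at 4.41 in R.19, 8.48 in R.20 and 3.23 in R.21, against 2.46 to 3.82 in healthy animals. The SD of CCL23 was 2.76 among the recipients and 0.37 in healthy animals. Without R.20 its difference was 0.98 and was not called.

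Among the falls, KIT, the stem cell factor receptor, stood at 3.98, 3.57 and 3.81, against 4.06, 5.29 and 6.68 in healthy animals. KANSL1L, a paralogue of a chromatin acetylation complex subunit, stood at 5.30, 5.46 and 6.03, against 6.15, 7.25 and 8.16. RIMKLB, an enzyme that ligates glutamate to N-acetylaspartate, stood at 4.26, 4.19 and 4.38, against 4.68, 5.79 and 6.57. All 3 genes were below every healthy animal in each recipient, with differences of -1.47 ± 0.41, -1.46 ± 0.32 and -1.43 ± 0.29 (adjusted p = 0.0101, 0.00126 and 0.000631). KIT and RIMKLB lay under the median of all values in the recipients, so the size of their change is less certain. RIMKLB differed by -0.95 as the mean of its 2 probe sets. KIT was not called without R.21 or without R.20.

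SOX4, a transcription factor of lymphoid progenitors and recent thymic emigrants, stood at 5.51, 5.83 and 6.63, against 4.55, 8.85 and 11.30, the largest called fall at -2.57 ± 0.85 (adjusted p = 0.0292). It was not called within batch 3 (adjusted p = 0.0603), with the myeloid list mean as a covariate (adjusted p = 0.0727) or without any 1 of the 3 arrays. ACKR1, a decoy receptor for chemokines best known from red cells and venules, fell by 2.15 ± 0.46 (adjusted p = 0.000986), and SELENOP, a selenium carrier, by 2.18 ± 0.71. ARHGEF7, a guanine nucleotide exchange factor, fell by 1.70 ± 0.45, CDC14A, a dual-specificity phosphatase, by 1.65 ± 0.48, and OLR1, a scavenger receptor for oxidised lipoprotein, by 1.43 ± 0.31. SLC22A23, ZNF654 and ZNF573 completed the 12 largest falls, at -1.45, -1.45 and -1.42. As the mean of their probe sets the differences were -1.07 for ACKR1, -1.45 for SELENOP, -1.03 for CDC14A and -0.57 for SLC22A23. ZNF573 lay under the median of all values in all 3 recipients, and SLC22A23 was not called with the myeloid list mean as a covariate (adjusted p = 0.0646). ACKR1 and OLR1 were called without any 1 array. SELENOP, ARHGEF7, CDC14A, SLC22A23, ZNF654 and ZNF573 each lost their call without at least 1 of the 3.

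The late arrays were next set against day 14 of the same 3 animals, which asks what changed between the samplings. The main fit does not pair the 2 arrays of an animal. By limma 2 of 31703 probe sets passed, or 0.00631%, both lower late, and 1864 had an unadjusted p under 0.05. Over genes this was 1 of 10718, or 0.00933%. The 1 with a gene name was BBC3, which encodes the pro-apoptotic protein PUMA, a p53 target. BBC3 stood at 8.27, 8.20 and 8.16 late in R.19, R.20 and R.21, against 9.78, 9.46 and 8.73 on day 14. All 3 animals were lower late, by a mean of 1.11 ± 0.21 (adjusted p = 0.0259). The late values lay within the healthy range of 7.81 to 8.91, and day 14 lay above it in R.19 and R.20. With the animal as a fixed block, on the 6 arrays alone, the difference was also -1.11 and was not called (adjusted p = 0.363), and no probe set passed, with 3791 at an unadjusted p under 0.05. BBC3 was not called without any 1 of the 3 late arrays either (adjusted p = 0.0801 to 0.162).

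FOS stood at 13.49, 12.88 and 11.94 late, against 8.25, 7.48 and 9.44 on day 14, and IFNG at 8.20, 7.73 and 5.79, against 4.95, 5.63 and 4.70. DUSP1 stood at 13.43, 12.54 and 12.41 late, against 11.0005, 10.09 and 10.24. In these genes each animal was higher late than on day 14. The differences of 4.38 for FOS, 2.15 for IFNG and 2.35 for DUSP1 were not called in the unpaired main fit (adjusted p = 0.641 for FOS, 0.734 for IFNG and 0.724 for DUSP1). Nor were they called with the animal as a fixed block. CD70 stood at 7.79, 7.94 and 8.13 late, against 6.69, 7.69 and 7.34 on day 14, a difference of 0.71 (adjusted p = 0.910). TNFRSF4 stood at 8.47, 9.03 and 8.97 late, against 8.34, 8.86 and 8.85, a difference of 0.14 (adjusted p = 0.995). A p that misses the threshold with 3 animals does not show that late and day 14 levels are alike.

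**Figure D4:**
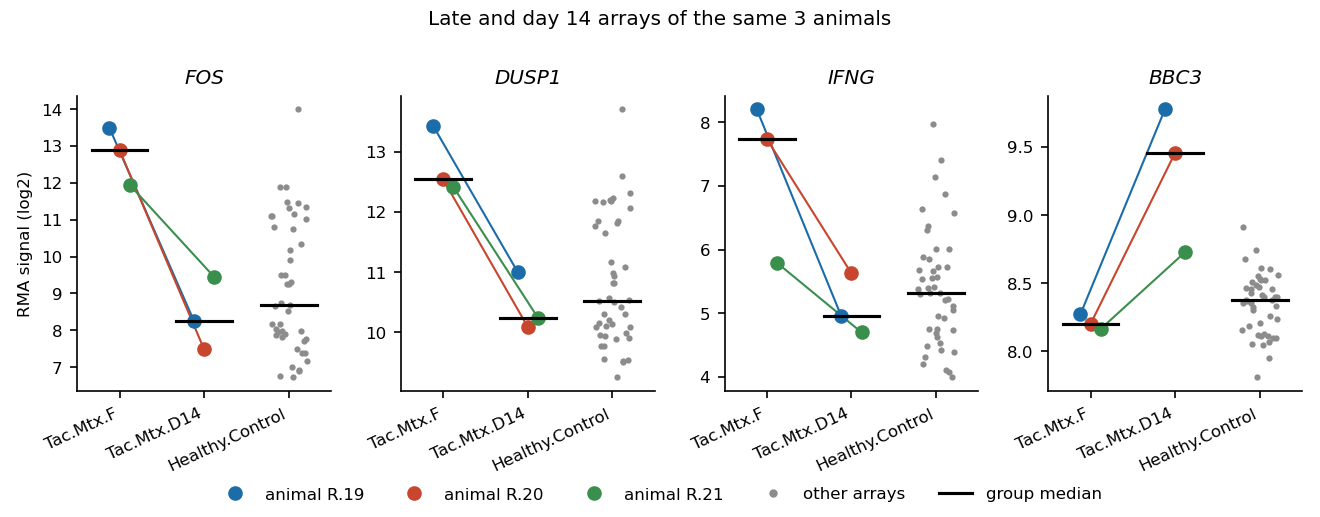
RMA signal (log2) of FOS, DUSP1, IFNG and BBC3 in Tac.Mtx.F (left), Tac.Mtx.D14 (middle) and Healthy.Control (right), with lines joining the 2 arrays of each animal and a bar at each group's median. FOS, DUSP1 and IFNG were higher late in each animal without passing the test, and BBC3 was lower late in each.

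The arrays were last compared with Bela.Siro.F, the other late recipients of the same batch, to show where Tac.Mtx.F differed under another regimen. The sampling days overlapped, at 26 to 67 and 26 to 105. Of 31703 probe sets 675 passed, or 2.13%, with 393 higher (1.24%) and 282 lower (0.89%) in Tac.Mtx.F. Of 10718 genes 190 passed, or 1.77%, with 144 higher, or 1.34%, and 46 lower, or 0.429%. The probe set count was 63 without R.20, 119 without R.19 and 202 without R.21. CD70 stood at 7.79, 7.94 and 8.13 in Tac.Mtx.F, against 5.41, 6.15 and 6.64 (lowest, median and highest) in Bela.Siro.F, a difference of 1.89 ± 0.37 (adjusted p = 0.00327). The 2 groups did not overlap, and CD70 was called without any 1 of the 3 Tac.Mtx.F arrays (adjusted p = 0.0163 to 0.0382). TNFRSF4, in contrast, stood at 8.47, 9.03 and 8.97 in Tac.Mtx.F, against 8.11, 8.70 and 9.76 in Bela.Siro.F, a difference of -0.01 ± 0.23 (adjusted p = 0.982).

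Cytotoxic genes were the list with the most genes higher than in Bela.Siro.F. Of 24 measured members 4 were higher and 0 lower, with a median of 1.30, beside 1.34% higher and a median of 0.01 over all genes. CCL5, a chemokine stored in cytotoxic cells, stood at 12.70, 11.97 and 10.33 in R.19, R.20 and R.21, against 7.90, 9.62 and 9.76 in Bela.Siro.F, a difference of 2.65 ± 0.64 (adjusted p = 0.0199). NKG7, a granule membrane protein, stood at 12.50, 11.96 and 10.61, against 9.56, 10.06 and 10.59, a difference of 1.65 ± 0.46 (adjusted p = 0.0407). In both genes every Tac.Mtx.F array was above every Bela.Siro.F array, R.21 in NKG7 only narrowly. CTSW, a protease of cytotoxic cells, differed by 1.45 ± 0.33 (adjusted p = 0.0113), and GZMH, a granzyme, by 1.97 ± 0.57 (adjusted p = 0.0474). The checkpoint gene CD160 stood at 9.24, 7.63 and 7.30, against 5.24, 5.75 and 6.17, a difference of 2.37 ± 0.51 (adjusted p = 0.00741), and CD8A differed by 0.63 ± 0.18 (adjusted p = 0.0497).

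In these fits the cytotoxic count of 4 was 0 without R.19, 1 without R.20, 4 without R.21 and 2 within batch 3. It was 16 with array weights, under which 5462 of all 31703 probe sets passed. Against healthy animals CCL5, NKG7, CTSW and GZMH were not called (0.59, 0.81, 0.61 and 0.24). Bela.Siro.F values were themselves low beside healthy animals. CCL5 ran from 7.90 to 9.76 in Bela.Siro.F and from 9.29 to 12.32 in healthy animals, and CTSW from 7.33 to 8.89 and from 8.18 to 10.26. NKG7 ran from 9.56 to 10.59 in Bela.Siro.F, within the healthy range of 9.21 to 12.10. Bela.Siro.F against healthy animals was not tested here. The cell cycle list had 0 genes called in Tac.Mtx.F against Bela.Siro.F by limma (13 of 23 at an unadjusted p under 0.05), with a median of 0.66. With array weights 14 of these 23 were called higher. The monocyte and myeloid list had 0 called (0 at an unadjusted p under 0.05), with a median of -0.58. FOXP3 differed by 0.00 ± 0.16 (adjusted p = 0.991).

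**Figure D5:**
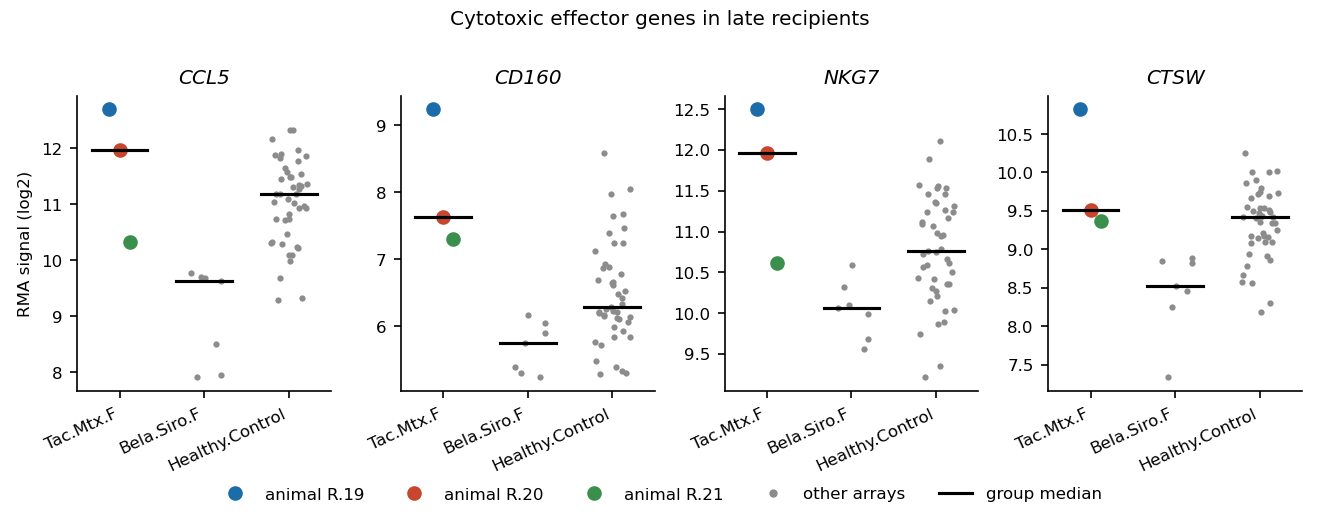
RMA signal (log2) of CCL5, CD160, NKG7 and CTSW in Tac.Mtx.F (left), Bela.Siro.F (middle) and Healthy.Control (right), with a bar at each group's median. The Tac.Mtx.F arrays lie above all 7 Bela.Siro.F arrays in each gene, and R.19 is the highest of the 3.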

How the data were processed

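RNA of sorted CD3 T cells was labelled by a 3' method and hybridised to Affymetrix rhesus arrays. The deposited values are log2 RMA signals made by the authors with affy, per the submitters' processing notes, whose versions are not given in the sources used here. Array medians ran from 5.13 to 5.35. An F test for batch over the healthy arrays gave an unadjusted p under 0.05 for 0.274% of probe sets, and above 0.95 for 24.9%. With the batch labels shuffled once, 5.8% had a p under 0.05. The healthy arrays thus differed less between the labelled batches than between shuffled ones. Whether the authors adjusted for batch is not given, and the fits make no allowance for such a step in their SE and p. The number of arrays limits the precision.

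Gene names came from the platform annotation, with a single gene for 24969 of 52865 probe sets, several for 361 and none for 27535. Of the single-gene probe sets 24629 matched the RefSeq table of assembly T2T-MMU8v2.0, used for names only. The table has 158 control probe sets, which were left out. The 31703 probe sets with 3 or more arrays at or above 5.21, the overall median, were tested. For each of 10718 genes the brightest probe set on average, among those with a single gene, was used. All 16 groups and 6 batches were fitted with limma 3.58.1 in R 4.3.3, with 80 residual degrees of freedom (prior 3.38). Tests were two-sided, with adjustment over every probe set tested. On simulated data for Tac.Mtx.F against Healthy.Control over 31703 probe sets, 77% of 2-fold and 98% of 4-fold changes were recovered and 8 unchanged probe sets were called. That noise held no correlation between genes.

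Tac.Mtx.F and Tac.Mtx.D14 come from the same animals by their labelled IDs, and the correlation of same-animal deviations from the group means was 0.40, 0.22 and 0.25 for R.21, R.20 and R.19. The genes named are the 12 largest called rises and the 12 largest called falls, up to 4 called members of each list, and a fixed set of FOXP3, MKI67, TOP2A, GZMB, GNLY, IFNG, IL2, IL2RA, CD40LG, CCR7, CD4, CD8A, LAG3, PDCD1, CTLA4, TYMS, FKBP1A, PPP3CA, NFATC1, NFATC2 and RCAN1. A further member of that set is not reported here. BBC3, CCL5, NKG7, CTSW, GZMH and further list members named with a difference alone were chosen after their values were seen. Genes of immunoglobulins, T cell receptors, MHC and KIR, and LOC symbols, are not named. The groups, the 30 gene lists and the alternatives were chosen with earlier results of these data known. A 3' to 5' actin ratio over 2.5 (log2) marked 6 arrays, none of them Tac.Mtx.F. Figures were drawn with matplotlib 3.10.9.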

Additional observations from a re-analysis of the deposited data

Results flagged for a closer look

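The difference between Tac.Mtx.F and Bela.Siro.F passed limma's own test, on the log2 scale, for 10 of the genes named: CD70 at 1.89, CD160 at 2.37, CCL5 at 2.65, GZMH at 1.97, NKG7 at 1.65, CTSW at 1.45, ADA at 0.68, CD8A at 0.63, GMPS at 0.51 and KANSL1L at -1.22. CD70 and CD160 were called under all 14 other settings, left-out arrays aside. CCL5, CTSW and ADA were called under 13 of 14, KANSL1L and NKG7 under 10, GMPS and GZMH under 9 and CD8A under 8. Several of these settings leave the difference itself unchanged and can move only its p. Among them are no batch term, only the 2 groups, batch 3 alone and another filter on low values. This also holds against Tac.Mtx.D14, as all 3 groups lie in batch 3. With each Tac.Mtx.F array left out in turn, CD70 was called in 3 of 3 fits, CD160 and CTSW in 2, CCL5, GZMH, NKG7 and ADA in 1, and GMPS, CD8A and KANSL1L in 0.

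In Tac.Mtx.F against Tac.Mtx.D14, the difference of BBC3 passed, at -1.11, under 11 of 15 other settings and in 0 of 3 fits with an array left out.

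For CTSW the lowest Bela.Siro.F array, at 7.33, stood apart from the other 6. Chance marks about 1 in 20 groups in this way.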

How the results depend on the processing

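For Tac.Mtx.F against Healthy.Control, the 4520 probe sets became 8974 with array weights and 1168 with a 2-fold minimum, and 1538 to 2937 with a Tac.Mtx.F array left out. The other 13 settings, among them no batch term, batch 3 alone and further quantile normalization, kept the count within 1.5 times. For Tac.Mtx.F against Tac.Mtx.D14, the 2 became 0 with batch 3 alone (1926 at an unadjusted p under 0.05), 0 after quantile normalization (1744), 32 with array weights, 4 with the animal as a random replicate block, 0 with it as a fixed replicate block (3791), and 0 to 2 with an array left out. For Tac.Mtx.F against Bela.Siro.F, the 675 became 411 with no filter on low values, 5462 with array weights, 279 with a 2-fold minimum, 1434 after removing the 6 arrays whose actin ratio was high, and 63 to 202 with an array left out. With only the 2 groups fitted, and without R.21, neither of the 2 was called against Tac.Mtx.D14, and 2 other probe sets were called higher. The random block moved the other counts by less than 1.5 times, and 1 of the called genes named, ZMAT3, was lost (adjusted p = 0.0529). The causes were not tested. Of the 79 called genes named by rule against Healthy.Control, 72 stayed called with batch 3 alone, a fit that leaves the differences themselves unchanged. The number was 73 after quantile normalization, 73 as the mean of all probe sets, 41 without R.21, 33 without R.20 and 59 without R.19. The difference of TREML1 was -0.038 without R.20. With 3 animals of 1 batch, sampled on 3 different days, animal and day cannot be told apart.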

Other observations

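Families of gene symbols outside the lists, chosen after their values were seen, had these calls in Tac.Mtx.F against Healthy.Control, with no test of the family. Of 61 genes of mitochondrial ribosomal proteins (MRPL and MRPS symbols), which translate the mitochondrial genome, 22 rose, or 36.1%, and 0 fell, with a median of 0.30, beside 10.1% rises and a median of 0.05 over all genes. MRPL12 rose by 0.67 ± 0.13, MRPS28 by 0.67 ± 0.16 and MRPL52 by 0.68 ± 0.18. The count was 21 with batch 3 alone, 12 after further quantile normalization, 3 without R.21, 5 without R.20 and 16 without R.19, with medians of 0.24 to 0.38 in these fits. Of 17 genes of centromere proteins (CENP symbols) 8 rose and 0 fell, with a median of 0.35, and 2 rose without R.21, 2 without R.20 and 7 without R.19.

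Most genes with ZNF symbols, many of them zinc finger genes, were not called. Of 227 genes with ZNF symbols 3 rose, or 1.32%, and 13 fell, or 5.73%, with a median of -0.08, beside 2.82% falls over all genes. The falls numbered 10 with batch 3 alone, 14 after quantile normalization, 8 without R.21, 5 without R.20 and 9 without R.19.

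Probe sets with and without a gene name differed in the direction of their calls. Of 17868 tested probe sets with a single gene 1627 were higher and 539 lower in Tac.Mtx.F, while of the 13835 others 560 were higher and 1794 lower, with medians of 0.05 and -0.09. Within batch 3 the split was 1632 and 486 against 544 and 1612. The counts over genes do not include the second set.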
